A study of Mus musculus with 6 samples.

Results

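The neutrophil-attracting CXC chemokine genes Cxcl1, Cxcl2, Cxcl3 and Cxcl5 were followed in mouse bone marrow-derived macrophages, cells grown in culture from marrow precursors. They are 4 of the 55023 genes in the deposited count table and were picked by gene symbol. RNA sequencing covered 6 libraries in 3 groups of 2, each after 24 h of treatment: LCL161 plus LTα1β2, LTα1β2 alone, and vehicle. LTα1β2 is a membrane-type lymphotoxin, a ligand of the lymphotoxin beta receptor (gene Ltbr), and LCL161 is a small molecule that antagonises the ubiquitin ligases cIAP1 and cIAP2. A group with LCL161 alone was not analysed here, so its addition can be read only on top of LTα1β2. The labels give no strain, sex, age or dose, and do not say whether the 2 libraries of a group came from separate animals or cultures. The p-values therefore rest on library-to-library spread alone, and that spread may be technical.

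These 4 chemokines belong to the CXC family members that carry a Glu-Leu-Arg motif ahead of their first cysteines. They bind the receptor Cxcr2, which mature neutrophils carry, and draw those cells into inflamed tissue. Macrophages make Cxcl1 (KC), Cxcl2 (MIP-2) and Cxcl3 quickly after inflammatory signals such as tumour necrosis factor, interleukin-1 or endotoxin. Their transcription depends largely on NF-kB, and their mRNAs are short-lived because proteins such as Zfp36 (tristetraprolin) bind AU-rich stretches in the 3′ untranslated region. Cxcl5 (LIX) is best known from epithelial, stromal and platelet sources in mice.

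All 4 genes lie on the plus strand of chromosome 5 in GRCm38, on the GENCODE M21 annotation. Cxcl5 (ENSMUSG00000029371.7) spans 90759360 to 90761624 and Cxcl3 (ENSMUSG00000029379.10) spans 90786103 to 90789600. Cxcl1 (ENSMUSG00000029380.11) spans 90891241 to 90893115 and Cxcl2 (ENSMUSG00000058427.10) spans 90903871 to 90905938. None of them overlaps another annotated gene on either strand. Their sequences are related: the coding sequences of Cxcl2 and Cxcl3 were 87.8% identical, those of Cxcl1 and Cxcl2 75.7%, and those of Cxcl5 and the other 3 genes 47% to 50%. The transcripts of Cxcl2 and Cxcl3 share an identical run of 110 bases, against 23 bases at most for Cxcl1 with either. Reads inside the 110-base run cannot be assigned to Cxcl2 or Cxcl3 alone, and in vehicle library 2 both genes have counts that are not whole (368.5 and 45.5).

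The promoters are shown because the 3 genes found in the RefSeq promoter table (GRCm38.p6) carry the same NF-kB-type element close to the transcription start; Cxcl5 is named only. Each run holds the 150 bases before the start, 5′ to 3′, and ends at the base before the earlier of the RefSeq and GENCODE starts. Capitals mark the matches to the kappaB consensus, which fall on both strands of 1 run of 11 bases and overlap each other.
Cxcl1 (chr5:90891091-90891240, plus strand): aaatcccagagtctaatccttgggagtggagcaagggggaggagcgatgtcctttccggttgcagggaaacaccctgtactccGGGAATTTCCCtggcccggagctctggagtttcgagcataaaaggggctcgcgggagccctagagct
Cxcl2 (chr5:90903721-90903870, plus strand): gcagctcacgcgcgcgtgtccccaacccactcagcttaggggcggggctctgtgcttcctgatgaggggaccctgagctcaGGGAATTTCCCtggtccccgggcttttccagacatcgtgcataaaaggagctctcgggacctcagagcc
Cxcl3 (chr5:90785951-90786100, plus strand): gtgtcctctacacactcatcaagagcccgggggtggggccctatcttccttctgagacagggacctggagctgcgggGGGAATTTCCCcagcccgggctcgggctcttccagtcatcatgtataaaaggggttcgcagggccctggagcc

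Counted from the RefSeq start, the plus-strand match began 71 bases upstream in Cxcl1, 97 in Cxcl2 and 73 in Cxcl3. Its inner 9 letters, GGAATTTCC, were in all 3 windows and, on either strand, in 104 of the 32851 RefSeq promoter windows of 300 bases (0.317%). The kappaB consensus as a whole was in 8.46% of these windows. The 9 letters were read from the match in the chemokine promoters themselves, so their presence in all 3 adds no support. An AP-1 motif (TGANTCA, in 7.81% of windows), an interferon-response core (GAAANNGAA, 8.56%), a GAS motif (TTCNNNGAA, 8.3%) and a C/EBP motif (TTGCNNAA, 10.8%) were in none of the 3. These letter matches describe the windows and are not evidence that a factor binds there.

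The 3′ untranslated regions are shown for the AU-rich pentamer ATTTA, the core of the sites that Zfp36-type decay proteins recognise. Cxcl1 has 7 ATTTA pentamers in 592 bases, Cxcl2 11 in 1494, Cxcl3 5 in 645 and Cxcl5 5 in 1111 (longest annotated 3′ untranslated region of each gene). Per base, a density at or above that of Cxcl1 was found in 0.299% of genes with a 3′ untranslated region of at least 200 bases, at or above that of Cxcl3 in 1.61%, of Cxcl2 in 1.99% and of Cxcl5 in 8.94%. The longer form TTATTTA followed by 2 bases that are A or T occurs 2 times in Cxcl1, 4 times in Cxcl2 and 3 times in Cxcl3, but not in Cxcl5, and is present in 16.2% of 21010 genes. The 30 bases with most pentamers in each gene, with ATTTA in capitals, are:
Cxcl1: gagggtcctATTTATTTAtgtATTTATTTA
Cxcl2: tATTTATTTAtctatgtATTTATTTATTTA
Cxcl3: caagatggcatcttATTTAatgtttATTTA
Cxcl5: agcttcctgctcatctcacaagtgtATTTA

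Total counts were 14718368 to 19049613 per library, and the 4 chemokines together had 769 and 783 reads with LCL161 plus LTα1β2, 75 and 84 with LTα1β2 and 476 and 481 with vehicle. The cultures had the defining macrophage markers in all 6 libraries: 10 of 10 markers had reads, with a summed level of 35597 to 37714 CPM with LCL161 plus LTα1β2, 37503 to 38398 CPM with LTα1β2 and 29511 to 36370 CPM with vehicle. CPM are counts scaled to library sizes corrected with TMM factors. Of these 10 markers, 8 rose and none fell with LTα1β2 against vehicle (median log2 change 0.81; Fcgr1 2.57 and Aif1 2.04), while 2 rose and 5 fell with LCL161 plus LTα1β2 against LTα1β2 (median -0.21; Fcgr1 -0.90). Lyz2, which did not pass in either comparison, makes up most of the sum. Stromal markers were also abundant and differed by group. The 13 stromal markers summed to 800 and 826 CPM with LCL161 plus LTα1β2, 2853 and 4030 CPM with LTα1β2 and 10514 and 7112 CPM with vehicle, with Acta2, Col1a1 and Col1a2 the most abundant in each library. Of the 12 stromal markers tested, 10 fell with LTα1β2 against vehicle and 10 with LCL161 plus LTα1β2 against LTα1β2. Lum was close to absent throughout, with 2 reads with LCL161 plus LTα1β2, 2 with LTα1β2 and 5 with vehicle. Dcn was low in every group (mean 0.64, 0.51 and 0.46 CPM in the same order), as was Thy1 (1.31, 0.44 and 0.77 CPM). The means of Dcn and Thy1 were highest with LCL161 plus LTα1β2, unlike the collagen genes and Acta2. The 12 neutrophil markers summed to 578 and 608 CPM with LCL161 plus LTα1β2, 1363 and 1122 CPM with LTα1β2 and 716 and 1055 CPM with vehicle, with S100a8, S100a9, Csf3r and Ngp the 4 most abundant in each library. Lists of mast cell and basophil, lymphocyte, and endothelial and epithelial markers each summed to 19.6 CPM or less in every library, and Tpsb2 of the mast cell list was at 0 in all 6. Counts of called genes in these and later lists are to be read beside the shares over all genes tested. These were 12.8% higher and 10.6% lower for LTα1β2 over vehicle. For LCL161 plus LTα1β2 they were 10.6% and 15.1% over LTα1β2, and 18.4% and 21.1% over vehicle. In bulk RNA, fewer cells of a type and less RNA per cell cannot be told apart. The part of these cell mixtures in the chemokine levels was not tested.

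**Figure D1:**
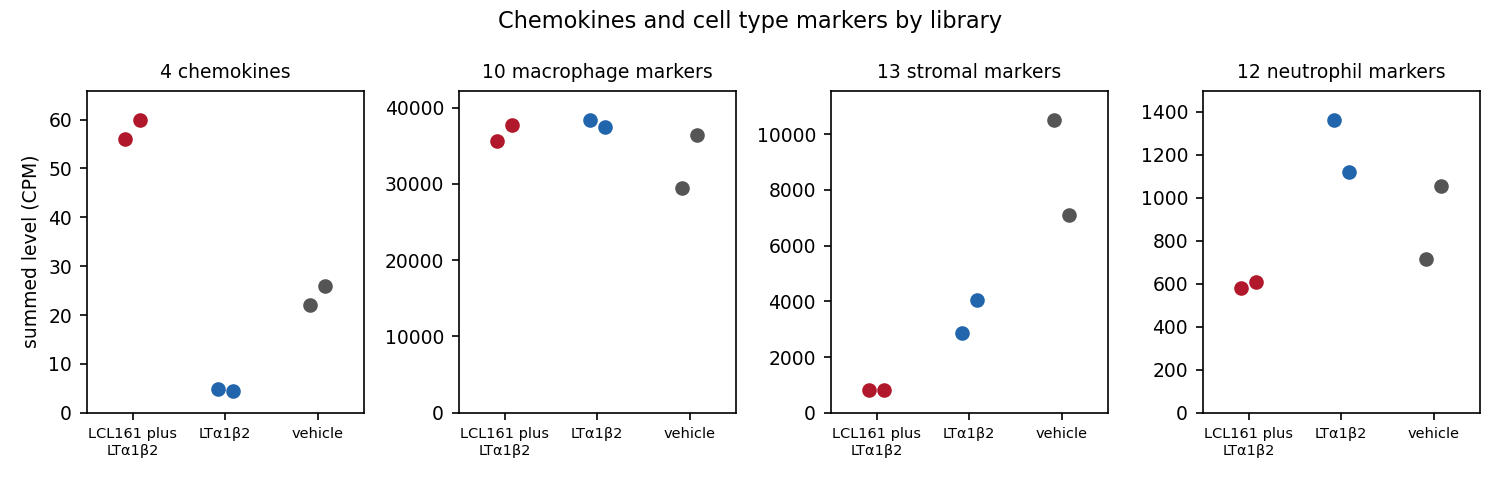
Summed level (CPM, linear axis) of the 4 chemokines and of the macrophage, stromal and neutrophil marker lists, with 1 point per library in the groups LCL161 plus LTα1β2, LTα1β2 and vehicle. The chemokine sum was 56.1 and 60 CPM with LCL161 plus LTα1β2, 4.79 and 4.49 CPM with LTα1β2 and 22 and 26 CPM with vehicle. The stromal sum was highest with vehicle and lowest with LCL161 plus LTα1β2, and the neutrophil sum was highest with LTα1β2. The part of cell mixtures in the chemokine sum was not tested.

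Cxcl2 was the most abundant of the 4 and the only one with more than 50 reads in every library. It had 488 and 500 reads with LCL161 plus LTα1β2, 54 and 62 with LTα1β2 and 382 and 368.5 with vehicle. This corresponds to 36.9 ± 1.9, 3.38 ± 0.0928 and 18.8 ± 1.56 CPM in the same order of groups (mean ± SD, n = 2 libraries per group). The 3 groups did not overlap, with LTα1β2 alone lowest and LCL161 plus LTα1β2 highest. With 2 libraries per group this is a description that adds no support, and the share of all genes separated in this way was not counted.

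Cxcl1 had 73 and 115 reads with LCL161 plus LTα1β2, 6 and 20 with LTα1β2 and 66 and 51 with vehicle. Its level was 7.07 ± 2.46 CPM with LCL161 plus LTα1β2, 0.726 ± 0.485 CPM with LTα1β2 and 2.91 ± 0.211 CPM with vehicle (SD, n = 2 each). The groups again did not overlap, which is likewise a description only, and the LTα1β2 libraries rest on few reads.

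Cxcl3 had 189 and 148 reads with LCL161 plus LTα1β2, 10 and 0 with LTα1β2 and 23 and 45.5 with vehicle. The level was 12.6 ± 1.74 CPM with LCL161 plus LTα1β2, 0.319 ± 0.451 CPM with LTα1β2 and 1.78 ± 1.01 CPM with vehicle (SD, n = 2 each). In LTα1β2 library 2, a count of 0 allows up to 0.16 CPM (a floor of 3 reads, counting error only).

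Cxcl5 had 19 and 20 reads with LCL161 plus LTα1β2, 5 and 2 with LTα1β2 and 5 and 16 with vehicle, so it had few reads throughout. Its level was 1.46 ± 0.103 CPM with LCL161 plus LTα1β2, 0.213 ± 0.15 CPM with LTα1β2 and 0.548 ± 0.448 CPM with vehicle (SD, n = 2 each). The LTα1β2 and vehicle libraries overlapped, while both LCL161 plus LTα1β2 libraries lay above all others. All 4 genes passed the filter on low counts. Cxcl5 reached the filter's level in both LCL161 plus LTα1β2 libraries and in 1 vehicle library, so it passed through the group in which it was highest.

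**Figure D2:**
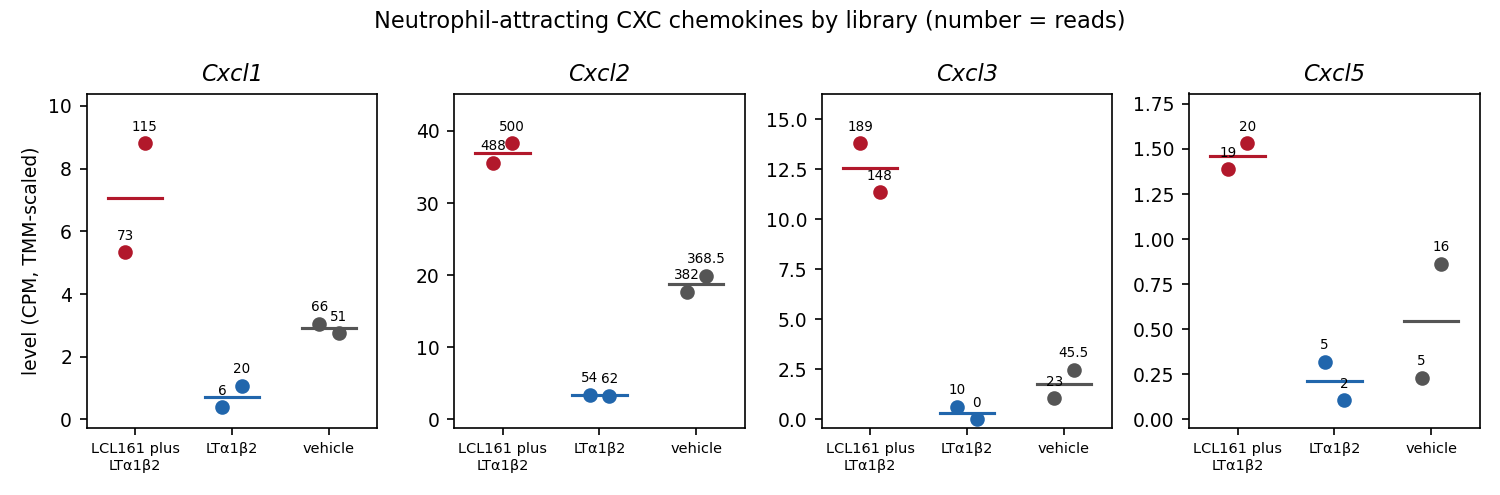
Level of Cxcl1, Cxcl2, Cxcl3 and Cxcl5 in each library (CPM, linear axes that differ between panels), with the number of reads beside each point and a bar at the mean of the 2 libraries. LTα1β2 alone has the lowest mean and LCL161 plus LTα1β2 the highest in each panel, and the LTα1β2 libraries hold 0 to 20 reads of Cxcl1, Cxcl3 and Cxcl5.

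Levels were set against each other per exon length, as RPKM (CPM divided by exon length in kilobases). With LCL161 plus LTα1β2 the order was Cxcl2 (19.9 ± 1.02 RPKM), Cxcl3 (12.4 ± 1.71), Cxcl1 (7.42 ± 2.58) and Cxcl5 (0.926 ± 0.0652), and no neighbours overlapped. With LTα1β2 alone it was Cxcl2 (1.82 ± 0.0499 RPKM), Cxcl1 (0.762 ± 0.509), Cxcl3 (0.314 ± 0.444) and Cxcl5 (0.135 ± 0.0952), and the libraries of the last 3 overlapped with their neighbours. With vehicle it was Cxcl2 (10.1 ± 0.839 RPKM), Cxcl1 (3.05 ± 0.222), Cxcl3 (1.75 ± 0.989) and Cxcl5 (0.348 ± 0.284), with no overlap between neighbours. Cxcl3 thus ranked above Cxcl1 with LCL161 plus LTα1β2 and below it with vehicle. Its share of the reads of the 4 genes was 24.6% and 18.9% with LCL161 plus LTα1β2, 13.3% and 0% with LTα1β2 and 4.83% and 9.46% with vehicle. Cxcl2 held 63.5% and 63.9% with LCL161 plus LTα1β2, 72% and 73.8% with LTα1β2 and 80.3% and 76.6% with vehicle. For scale, the interferon-inducible T cell attractant Cxcl9, a CXC chemokine without the Glu-Leu-Arg motif, had 489 ± 13.6 RPKM with LCL161 plus LTα1β2, 248 ± 51.6 RPKM with LTα1β2 and 0.267 ± 0.00742 RPKM with vehicle.

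The comparison of LTα1β2 with vehicle asks what the ligand alone did to these genes. Cxcl2 fell (log2 change -2.47, SE 0.14, edgeR quasi-likelihood adjusted p = 2.85e-05), 5.55-fold lower with LTα1β2. Cxcl1 also fell (log2 change -1.95, SE 0.45, edgeR adjusted p = 0.0183), 3.86-fold lower. Cxcl3 had a log2 change of -2.54 (SE 0.84, 95% interval -4.50 to -0.58) that did not pass (edgeR adjusted p = 0.0671, unadjusted 0.0178). Both LTα1β2 libraries lay below both vehicle libraries, a description of 2 libraries per group that adds no support. Cxcl5 had a log2 change of -1.35 (95% interval -3.28 to 0.59, edgeR adjusted p = 0.296). The Cxcl5 value was -2.18 without LTα1β2 library 1, -0.74 without LTα1β2 library 2, -2.03 without vehicle library 1 and -0.16 without vehicle library 2, none of them called. Of the 4 genes, 2 were thus called lower and none higher. Of all 18812 genes tested, 10.6% were called lower and 12.8% higher in this comparison. The median log2 change of the 4 was -2.21, against -0.04 over all genes tested.

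The Cxcl1 value stayed below 0 when any library was left out, but its call did not always hold. Without LTα1β2 library 1 its log2 change was -1.36 (edgeR adjusted p = 0.091), without vehicle library 1 it was -1.88 (adjusted p = 0.0837), and without LTα1β2 library 2 it was -2.91 and still called. Adjusted p-values of Cxcl1 lay between 1.33e-06 and 0.091 in 15 alternatives. Without LTα1β2 library 1 the only LTα1β2 library left has no Cxcl3 read. Its fitted value of -7.89 there is no bound, and the edgeR adjusted p was 0.0196. It was -1.45 without LTα1β2 library 2 and -1.83 without vehicle library 2, neither called. Cxcl3 was also called with no filter beyond 1 read (adjusted p = 1.42e-07) and under total-count scaling (0.0413), with a range of 1.42e-07 to 0.262 over 15 alternatives.

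Addition of LCL161 to LTα1β2 was compared with LTα1β2 alone to ask what the cIAP antagonist changed in the presence of the ligand. Cxcl1, Cxcl2 and Cxcl3 rose. Cxcl3 had the largest increase of the 4 (log2 change 5.38, SE 0.70, edgeR adjusted p = 0.00144), with 337 reads in the LCL161 plus LTα1β2 group against 10 in the LTα1β2 group. The read ratio on TMM-scaled sizes was 43.3, with a 95% counting interval of 23.2 to 91.1. That interval pools the libraries of a group and leaves out the spread between them, and LTα1β2 library 2 had 0 reads. Whether Cxcl3 rose more than Cxcl1 and Cxcl2 in this comparison was not tested. Cxcl2 rose 10.9-fold (log2 change 3.45, SE 0.15, edgeR adjusted p = 1.53e-05) and ranked 25 by p among the 18812 genes. Cxcl1 rose 9.35-fold (log2 change 3.22, SE 0.43, edgeR adjusted p = 0.00159). Cxcl5 had a log2 change of 2.78 (SE 0.78, edgeR adjusted p = 0.0364), with 39 reads in the LCL161 plus LTα1β2 group against 7 in the LTα1β2 group. Because Cxcl5 entered the test through the libraries with LCL161 plus LTα1β2, in which it was highest, its p is given as a description and supports no call here. Over all genes tested, 10.6% were called higher and 15.1% lower. As a description that includes Cxcl5, the median log2 change was 3.34 for the 4 genes, against 0.00 over all genes.

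The increases of Cxcl1, Cxcl2 and Cxcl3 over LTα1β2 alone were called in each of their alternatives. Without LTα1β2 library 2, the one with no Cxcl3 read, Cxcl3 had a log2 change of 4.25 (edgeR adjusted p = 0.00498). Without LTα1β2 library 1 its fitted value was 10.74, which rests on 0 reads in the remaining LTα1β2 library and is no bound. The Cxcl1 value was 2.65 without LTα1β2 library 1, 4.14 without LTα1β2 library 2 and 2.76 without LCL161 plus LTα1β2 library 2. The adjusted p of Cxcl5 was above 0.05 without LTα1β2 library 1 (3.62, edgeR adjusted p = 0.0575), without LTα1β2 library 2 (2.13, 0.197), and without LCL161 plus LTα1β2 library 1 (2.83, 0.0965) or library 2 (2.64, 0.0995). Its adjusted p was 0.0501 with the replicate number as a block, and ran from 0.00166 to 0.197 over 15 alternatives.

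**Figure D3:**
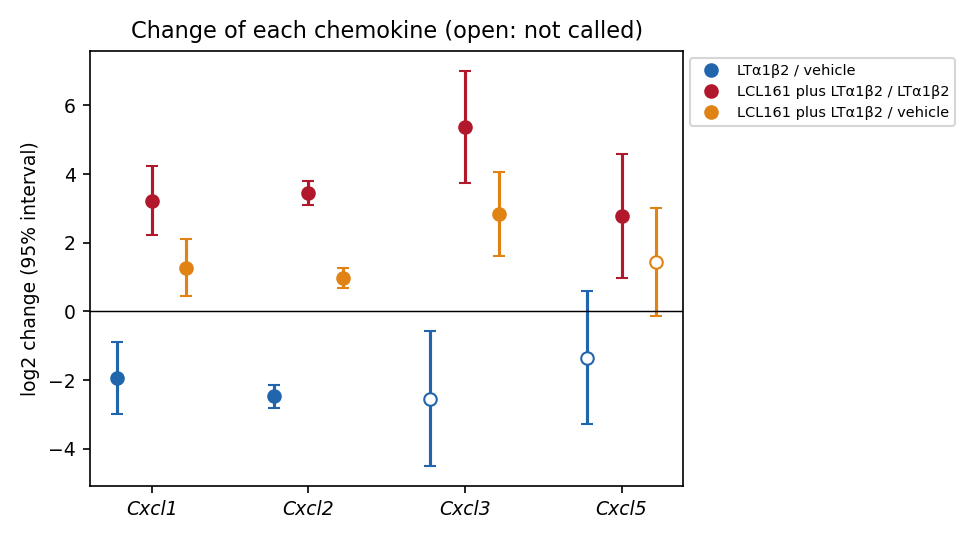
Log2 change of each chemokine (points) with its 95% interval (bars) for LTα1β2 over vehicle, LCL161 plus LTα1β2 over LTα1β2, and LCL161 plus LTα1β2 over vehicle; open points did not pass the adjusted threshold of 0.05. Points for LTα1β2 over vehicle lie below 0 and the others above it, and the intervals of Cxcl2 are the narrowest. The filled point of Cxcl5 supports no call, because Cxcl5 passed the filter through the LCL161 plus LTα1β2 libraries.

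Against vehicle, cells given LCL161 plus LTα1β2 had higher levels of 3 of the 4 genes. Cxcl3 rose 7.17-fold (log2 change 2.84, SE 0.52, 95% interval 1.62 to 4.06, edgeR adjusted p = 0.00388). Cxcl1 rose 2.42-fold (log2 change 1.28, SE 0.35, 95% interval 0.46 to 2.10, edgeR adjusted p = 0.0237), and Cxcl2 rose 1.97-fold (0.98, SE 0.12, edgeR adjusted p = 0.000563). Whether Cxcl3 rose more than Cxcl1 and Cxcl2 was not tested. Both LCL161 plus LTα1β2 libraries lay above both vehicle libraries for Cxcl5. This adds no support, because Cxcl5 entered the test through the LCL161 plus LTα1β2 libraries. Cxcl5 had a log2 change of 1.43 (SE 0.67) that did not pass (edgeR adjusted p = 0.129). Its value was 0.70 without vehicle library 1 and 2.57 without vehicle library 2, neither called. In this comparison 18.4% of all genes tested were called higher and 21.1% lower. As a description that includes Cxcl5, the median log2 change of the 4 was 1.35, against 0.05 over all genes. The 3 comparisons share libraries, so their values for a gene are not independent of each other.

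The increase of Cxcl1 over vehicle was not called without LCL161 plus LTα1β2 library 2 (log2 change 0.80, edgeR adjusted p = 0.16), without vehicle library 1 (1.30, 0.0929), without vehicle library 2 (1.16, 0.115) or under total-count scaling (0.95, 0.0524). The 15 alternatives gave it adjusted p-values of 6.56e-05 to 0.16. The increase of Cxcl3 over vehicle was not called by DESeq2 (log2 change 2.82, adjusted p = 0.142), and its 15 alternatives gave adjusted p-values of 1.32e-24 to 0.142. It was 2.28 without vehicle library 1 and 3.50 without vehicle library 2. With the reads of Cxcl2 and Cxcl3 summed, a choice made once the data had been seen, the pair had 677 and 648 reads with LCL161 plus LTα1β2, 64 and 62 with LTα1β2 and 405 and 414 with vehicle. The summed log2 changes were -2.48 for LTα1β2 over vehicle, 3.75 for LCL161 plus LTα1β2 over LTα1β2 and 1.27 for LCL161 plus LTα1β2 over vehicle (edgeR adjusted p = 5.04e-05, 1.8e-05 and 0.000263).

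Genes that neighbour the 4 chemokines on chromosome 5 were read in the same fit. Ppbp, the precursor of a platelet-derived neutrophil attractant that also carries the Glu-Leu-Arg motif, and Pf4, platelet factor 4, lie between Cxcl5 and Cxcl3. Ppbp had 21 and 5 reads with LCL161 plus LTα1β2, 9 and 6 with LTα1β2 and 69 and 120 with vehicle. It fell with LTα1β2 against vehicle (log2 change -3.43, SE 0.63, edgeR adjusted p = 0.00761) and also with LCL161 plus LTα1β2 against vehicle (-2.31, SE 0.58, edgeR adjusted p = 0.0163). LCL161 plus LTα1β2 against LTα1β2 gave a log2 change of 1.13 (95% interval -0.68 to 2.93) for Ppbp, which did not pass. Pf4 had 247 and 229 CPM with LCL161 plus LTα1β2, 194 and 176 CPM with LTα1β2 and 405 and 454 CPM with vehicle. Its log2 changes were -1.22 for LTα1β2 over vehicle, 0.36 for LCL161 plus LTα1β2 over LTα1β2 and -0.85 for LCL161 plus LTα1β2 over vehicle, and all 3 passed (edgeR adjusted p = 0.000248, 0.0415 and 0.000519). Cxcl15 (lungkine), next to Cxcl3, had at most 6 reads in any library and was not tested.

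Of 7 tested genes on a list of genes beside the cluster, Rassf6, Parm1 and Mthfd2l fell with LTα1β2 against vehicle and none rose. With LCL161 plus LTα1β2 against LTα1β2 none of the 7 rose and Parm1 fell. The medians of the list were -1.13 and 0.06 on the log2 scale. Within 300 kb of the chemokines Afp (alpha-fetoprotein), which is not on that list, rose with LCL161 plus LTα1β2 against LTα1β2 (log2 change 1.22, SE 0.28, edgeR adjusted p = 0.0163). It is named for its place on the chromosome and was chosen after its values were seen.

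**Figure D4:**
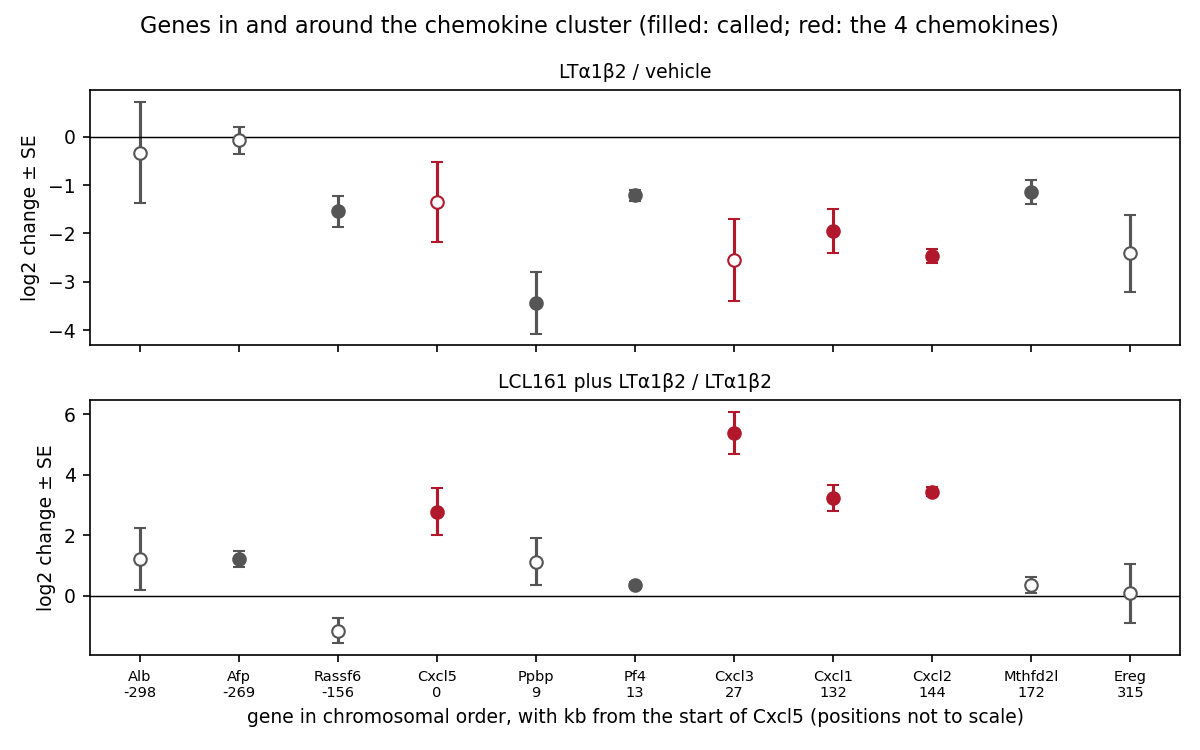
Log2 change ± SE of the tested protein-coding genes within 300 kb of the 4 chemokines, in chromosomal order and not to scale, for LTα1β2 over vehicle (top) and LCL161 plus LTα1β2 over LTα1β2 (bottom); filled points passed the adjusted threshold, and red points are the 4 chemokines. In the bottom panel the 4 chemokines lie from 2.78 (Cxcl5) to 5.38, and Ppbp and Pf4 lie at 1.13 and 0.36. The filled point of Cxcl5 there supports no call, because Cxcl5 passed the filter through the LCL161 plus LTα1β2 libraries.

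Receptors and binding partners were followed from a list of 5. Cxcr2, the receptor of these chemokines, had 1.68 and 2.53 CPM with LCL161 plus LTα1β2, 11 and 9.04 CPM with LTα1β2 and 5.09 and 6.59 CPM with vehicle. It rose with LTα1β2 against vehicle (log2 change 0.78, SE 0.22) and fell with LCL161 plus LTα1β2 against LTα1β2 (-2.25, SE 0.26). Cxcr2 is itself one of the 12 neutrophil markers. In the same comparison with LTα1β2, 7 of the 12 neutrophil markers fell and none rose, among them Ltf (-2.93) and Ngp (-1.96). The heparan sulphate proteoglycans Sdc1 and Sdc4, which can bind chemokines at the cell surface, rose with LCL161 plus LTα1β2 against LTα1β2 (2.21, SE 0.13, and 1.60, SE 0.17). Against vehicle, Sdc1 fell with LTα1β2 alone (-0.73, SE 0.13) and Sdc4 did not pass (0.08, SE 0.17). Cxcr1 and the scavenger Ackr1 had at most 4 reads in any library and were not tested.

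A list of 7 genes held factors for neutrophil production and survival, and also Csf1, which encodes the macrophage growth factor M-CSF. Of these 7 genes, 4 were tested. Csf3, which encodes G-CSF, had at most 1 read in any library, and Csf2 and Il23a also stayed below the filter. Of the tested genes, Csf1 and Osm fell with LTα1β2 against vehicle (log2 change -0.83 and -0.89), and Csf1 fell again with LCL161 plus LTα1β2 against LTα1β2 (-0.94, SE 0.12). None of the 4 rose in any comparison, and Il6 and Lif did not pass in any. The medians were -0.86 for LTα1β2 over vehicle and -0.34 for LCL161 plus LTα1β2 over LTα1β2.

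Cytokines that induce these chemokines, and their receptors, were listed as 12 genes. Il1a had 81.9 and 86.1 CPM with LCL161 plus LTα1β2, 3.57 and 3.85 CPM with LTα1β2 and 3.98 and 6.49 CPM with vehicle. It rose with LCL161 plus LTα1β2 against LTα1β2 (log2 change 4.49, SE 0.22), as did Il1b (2.05, SE 0.17), Tnf (2.25, SE 0.12) and the interleukin-1 receptor antagonist Il1rn (3.67, SE 0.55). Tnf had 400 and 448 CPM with LCL161 plus LTα1β2, 82.6 and 96.1 CPM with LTα1β2 and 22 and 25.1 CPM with vehicle. Tnf thus also rose with LTα1β2 against vehicle (1.92, SE 0.13). Whether any of these cytokines acted on the chemokine genes here was not tested. Of the 11 tested, 6 rose and 3 fell with LCL161 plus LTα1β2 against LTα1β2, with a median of 0.59. With LTα1β2 against vehicle 3 rose (Tnf, Tnfrsf1a and Ltbr) and Il1r1 fell, with a median of 0.39. Of all genes tested, 10.6% were called higher and 15.1% lower for LCL161 plus LTα1β2 over LTα1β2, and 12.8% and 10.6% for LTα1β2 over vehicle.

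Transcriptional activators of chemokine genes were listed as 18 genes, all tested. With LCL161 plus LTα1β2 against LTα1β2, 7 rose and 4 fell (median 0.39), beside 10.6% higher and 15.1% lower of all genes tested. By p the list was led by the NF-kB subunit gene Nfkb2 (log2 change 2.26, SE 0.11), Hif1a (1.24, SE 0.09) and the NF-kB subunit gene Relb (1.84, SE 0.15). With LTα1β2 against vehicle, 5 rose and Fosl1 fell (-1.06, SE 0.20; median 0.26), led by the adaptor gene Myd88 (0.81, SE 0.10) and Cebpb (5.58, SE 1.02). Cebpb had 7.88 and 92.4 CPM with LCL161 plus LTα1β2, 132 and 129 CPM with LTα1β2 and 2.45 and 3.03 CPM with vehicle. The libraries with LCL161 plus LTα1β2 are far apart for Cebpb, and also for the NF-kB subunit gene Rela (93.6 and 252 CPM) and for Bcl3 (52 and 118 CPM). Against vehicle, LCL161 plus LTα1β2 had 12 of the 18 higher and 4 lower (median 1.01). Of all genes tested, 18.4% were called higher and 21.1% lower there, and 12.8% and 10.6% for LTα1β2 over vehicle.

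Negative regulators and mRNA decay factors were listed as 20 genes, all tested. The list is mixed: not all of its genes inhibit NF-kB or speed mRNA decay, and it also holds Elavl1. With LCL161 plus LTα1β2 against LTα1β2, 8 rose and 3 fell (median -0.02). Of all genes tested, 10.6% were called higher and 15.1% lower in this comparison, so the number that fell is near that share. The IkB gene Nfkbie (log2 change 2.65, SE 0.13), Tnfaip3, which encodes the deubiquitinase A20 (2.35, SE 0.14), and the RNase gene Zc3h12c (2.11, SE 0.14) led the list by p. The 3 that fell were Zfp36 (-0.72, SE 0.15), Zfp36l1 (-1.28, SE 0.14) and Zfp36l2 (-1.62, SE 0.33), the 3 tristetraprolin-family genes of the list. Zfp36l2 had 41.8 and 99.3 CPM with LCL161 plus LTα1β2, 217 and 218 CPM with LTα1β2 and 53.7 and 50.5 CPM with vehicle, so its libraries with LCL161 plus LTα1β2 stand apart from each other and differ in the size of the decrease. Those libraries also stand apart for Elavl1 (52 and 106 CPM), which encodes an mRNA-stabilising protein. The Zfp36-family proteins bind AU-rich stretches of the kind printed above. Whether the levels of these genes bear on the chemokine mRNAs was not tested. Zfp36 had 171 and 199 CPM with LCL161 plus LTα1β2, 316 and 291 CPM with LTα1β2 and 160 and 209 CPM with vehicle. It rose with LTα1β2 against vehicle (0.72, SE 0.15), as did Zfp36l2 (2.06, SE 0.33), while Zfp36l1 did not pass (-0.38, SE 0.13). In that comparison 9 of the 20 rose and Dusp1 fell (median 0.44), led by the RNA-binding protein gene Arid5a (2.15, SE 0.11), Socs3 (2.67, SE 0.14) and Tnip3 (0.87, SE 0.10). Against vehicle, LCL161 plus LTα1β2 had 10 of the 20 higher and 2 lower (median 1.17).

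**Figure D5:**
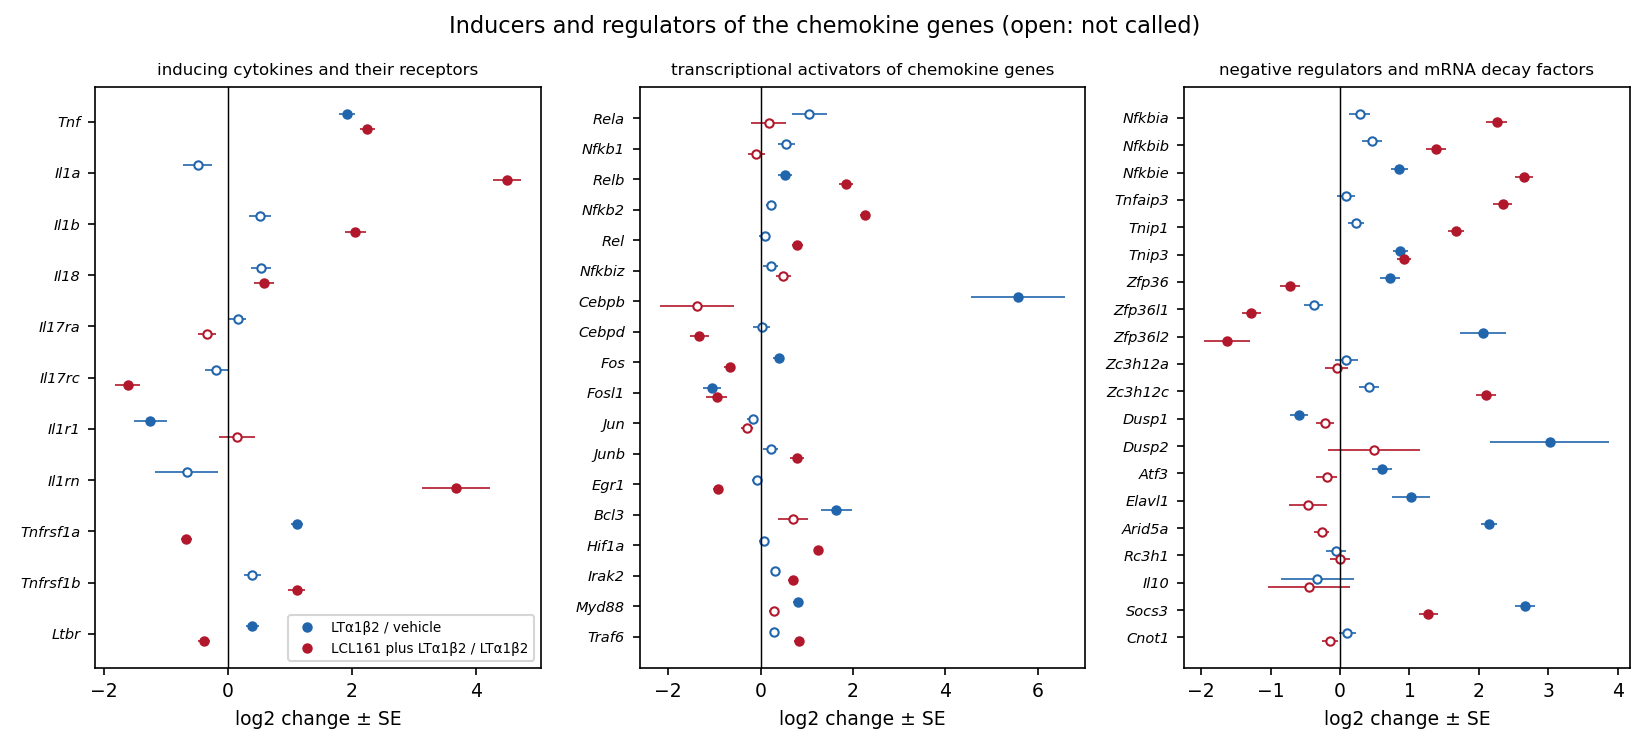
Log2 change ± SE of inducing cytokines and receptors, transcriptional activators, and negative regulators with mRNA decay factors, for LTα1β2 over vehicle (blue) and LCL161 plus LTα1β2 over LTα1β2 (red); open points did not pass the adjusted threshold. Il1a lies at 4.49 for LCL161 plus LTα1β2 over LTα1β2. Zfp36 and Zfp36l2 lie right of 0 for LTα1β2 over vehicle and left of it for LCL161 plus LTα1β2 over LTα1β2. Zfp36l1 lies left of 0 in each of these comparisons and did not pass for LTα1β2 over vehicle. A link of any of these genes to the chemokine levels was not tested.

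Other chemokines were read from 2 lists. Of 6 tested CXC chemokines without the Glu-Leu-Arg motif, 4 rose and Cxcl12 fell with LTα1β2 against vehicle, led by Cxcl9 (log2 change 9.84, SE 0.23), Cxcl10 and Cxcl11. With LCL161 plus LTα1β2 against LTα1β2 the same list had 4 higher and 2 lower, led by Cxcl11 (3.45, SE 0.22), Cxcl14 (-2.02, SE 0.13) and Cxcl16 (1.21, SE 0.12). Of 5 tested CC chemokines that are induced quickly in inflammation, Ccl3 is the one that fell with LTα1β2 against vehicle (-1.08, SE 0.14) and rose with LCL161 plus LTα1β2 against LTα1β2 (2.45, SE 0.14). Ccl3, which attracts monocytes and neutrophils, had 43.3 and 44.4 CPM with LCL161 plus LTα1β2, 7.27 and 8.71 CPM with LTα1β2 and 17.7 and 16.3 CPM with vehicle. Ccl4 also rose with LCL161 plus LTα1β2 against LTα1β2 (1.95, SE 0.23), and its log2 change for LTα1β2 over vehicle was -0.01 (SE 0.23).

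As a description over the 6 libraries, with no test, the log2 CPM of Cxcl1 and Cxcl2 had a Pearson r of 0.946, those of Cxcl3 and Cxcl5 0.957, and those of Cxcl1 and Cxcl5 0.737. These points share libraries and their depths, and the 3 groups dominate such values. Cxcl5 had 2 to 20 reads per library and Cxcl3 had 10 and 0 with LTα1β2. Their r values, also those with the nearest genes below, thus rest partly on counts near the floor. Among 10100 named genes with a mean of at least 5 CPM, the pattern of Cxcl2 was most like that of Psmd5 (r = 0.997), Glipr1 (0.994) and Fam136a (0.991). The nearest to Cxcl1 were Hsd17b10 (0.991), Trip10 (0.989) and Srfbp1 (0.987). Nearest to Cxcl3 were Atp6v1c1 (0.997), Tmem135 (0.993) and Arl1 (0.992), and to Cxcl5 they were Rnf7 (0.994), Cnot4 (0.99) and Tbc1d15 (0.986). Many other genes came close: an r above 0.95 was reached by 52 genes for Cxcl1, 78 for Cxcl2, 63 for Cxcl3 and 33 for Cxcl5. Likeness of pattern did not mean likeness of size. Psmd5, a gene of proteasome assembly, had 127 and 132 CPM with LCL161 plus LTα1β2, 90.9 and 89.7 CPM with LTα1β2 and 114 and 120 CPM with vehicle.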

How the data were processed

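The authors deposited 1 table of expected counts per gene symbol for all 6 libraries, unnormalised, with 66.6% of non-zero values exactly whole (no tolerance). The submitters' processing notes name GRCm38 as build, and as tools DESeq2 1.26.0 and STAR 2.7.3a, with no order. The sources used here do not give the counting program, annotation, strand setting or treatment of reads with several matches.

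Counts were rounded and filtered with filterByExpr (minimum 10 reads), which left 18812 of 55023 genes, and 26 date-like symbols stayed in. edgeR 4.0.16 (R 4.3.3) was fitted over all 6 libraries: TMM factors, glmQLFit and glmQLFTest, two-sided, group means, Benjamini-Hochberg adjustment over all genes tested, calls under 0.05. The spread rests on 3 residual and 4.59 prior degrees of freedom. SE was taken as the absolute log2 change over the root of its F value. The fit was tested on simulated data. RPKM used the exons of protein-coding transcripts. Replicate libraries differed by more than counting error (chi-square per degree of freedom 8.89 to 16.8).

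The members and gene lists were chosen with earlier results of these data known. Named from each list are up to 3 called genes with the smallest p per comparison, and otherwise genes whose role is stated. The latter were chosen after their values were seen. Alternatives were relative log expression factors, total-count scaling, DESeq2 1.42.0, limma voom 3.58.1, 2 other filters, only the groups compared, a replicate block, unrounded counts, each library left out and, added later, Cxcl2 and Cxcl3 summed.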

Additional observations from a re-analysis of the deposited data

How the results depend on the processing

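Cxcl2 kept its direction and call in all 3 comparisons under its 16 alternatives, and no chemokine reversed under any. Total-count scaling gave -2.72 for Cxcl3 in LTα1β2 over vehicle (called) and 0.95 for Cxcl1 in LCL161 plus LTα1β2 over vehicle (not called). It placed the median log2 change of all genes at -0.23, -0.12 and -0.26 for LTα1β2 over vehicle, LCL161 plus LTα1β2 over LTα1β2 and LCL161 plus LTα1β2 over vehicle, against -0.04, 0.00 and 0.05 with TMM. The share of calls that were higher became 33%, 28% and 24.6%, against 54.8%, 41.2% and 46.6%. With no filter beyond 1 read, Cxcl3 was called in LTα1β2 over vehicle (-2.46). DESeq2 gave 2.82 for Cxcl3 in LCL161 plus LTα1β2 over vehicle, not called, and gave no adjusted p for Cxcl5 in LTα1β2 over vehicle, which also failed the filter in the fit of those 2 groups alone.

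Leaving out 1 library left 1930 to 4933 genes called in LTα1β2 over vehicle (4401 with all), 2332 to 4604 in LCL161 plus LTα1β2 over LTα1β2 (4832) and 4885 to 7285 in LCL161 plus LTα1β2 over vehicle (7431). Counts changed by over 1.5 times without vehicle library 1 (1930 and, in LCL161 plus LTα1β2 over vehicle, 4885), vehicle library 2 (2807), LTα1β2 library 1 (2457) and LTα1β2 library 2 (2499 and, in LCL161 plus LTα1β2 over LTα1β2, 2332). A lone library was assumed to vary like the other groups. The log2 changes ran from -2.91 to -1.36 for Cxcl1 and from -7.89 to -1.45 for Cxcl3 in LTα1β2 over vehicle, from 2.13 to 3.62 for Cxcl5 in LCL161 plus LTα1β2 over LTα1β2, and from 0.80 to 1.58 for Cxcl1 in LCL161 plus LTα1β2 over vehicle. The causes, among them the lower number of libraries, were not tested.

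With a replicate block the counts were 4144, 4629 and 7308, and Cxcl5 in LCL161 plus LTα1β2 over LTα1β2 was 2.77 and not called, while the other chemokine results stayed on their side of the threshold. Replicate differences correlated at 0.157, 0.0941 and 0.138 between pairs of groups, which, with only 2 numbers per group, does not settle whether a number marks a shared batch. Cxcl5 had at most 20 reads per library, as did Cxcl1 and Cxcl3 with LTα1β2 alone; how much of their spread is counting error was not tested.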
